A study of Mus musculus with 4 samples.

Results

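MHC class II genes and their activator *Ciita* were examined in early T-cell progenitors (ETP), the most immature T lineage cells of the thymus. The group holds 10 of the 23361 genes in the deposited table, chosen by name: the classical chain genes *H2-Aa*, *H2-Ab1* and *H2-Eb1*, the invariant chain gene *Cd74*, the DM genes *H2-DMa*, *H2-DMb1* and *H2-DMb2*, the DO genes *H2-Oa* and *H2-Ob*, and *Ciita*. ETP came from old mice, aged 72 weeks, and from young mice, aged 4 to 6 weeks, with 2 RNA-seq libraries per age, all from the thymus of female C57BL6 animals with no other treatment or allele. The sort gate for ETP was Lin- CD44+ CD25- CD117+, with lineage antibodies to T cell and NK cell antigens, IgM, CD45R, CD11b, Gr-1 and TER-119, a list without CD11c or an MHC class II antigen. Whether a library stands for 1 animal or a pool, and whether each age had separate animals, is stated by neither the labels nor the methods, so p-values reflect the spread among these libraries alone, which may be technical. The table calls the old condition 20m, where the labels give weeks. Replicates 1 and 2 follow the numbering of the table, which the labels do not tie to a particular sample of an age.

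MHC class II molecules are pairs of an α and a β chain that present peptides from the endosomal pathway to CD4 T cells. The invariant chain, encoded by *Cd74*, holds new pairs together and blocks their groove, DM then removes its last fragment and edits the peptide, and DO inhibits DM. CIITA switches these genes on: it does not bind DNA itself but docks on the RFX, CREB and NF-Y proteins that sit on the X and Y boxes of class II promoters. In the mouse thymus, class II is best known from epithelial cells, dendritic cells and B cells, and mouse T cells themselves make little of it.

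Upstream sequences of 4 members are shown because class II genes are known for these promoter boxes and because the list includes genes with large and small differences between the ages. Promoter sequences from RefSeq (GRCm38.p6) were found for 7 of the 10 members, as 8 promoters, and not for *H2-Ab1*, *Cd74* and *Ciita*. In the 250 bases before the start, each strand was searched for the X box core, GNNAC joined directly to NGNTG (N is any base), followed after 10 to 30 bases by ATTGG, the inverted CCAAT of the Y box. The windows run 5′ to 3′ on the strand of the gene, with matches to the boxes in capitals.
H2-Eb1, chr17:34305763-34305827, plus strand: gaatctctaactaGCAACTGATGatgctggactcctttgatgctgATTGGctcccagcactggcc
H2-Ob, chr17:34238803-34238867, plus strand: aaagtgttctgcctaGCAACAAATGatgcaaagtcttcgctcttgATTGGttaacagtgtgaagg
H2-DMb2, chr17:34145114-34145178, plus strand: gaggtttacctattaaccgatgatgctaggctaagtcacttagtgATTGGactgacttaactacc
H2-Aa, chr17:34287852-34287916, minus strand: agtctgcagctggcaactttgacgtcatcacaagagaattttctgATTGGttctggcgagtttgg

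*H2-Eb1* held both boxes, 22 bases apart, and so did *H2-DMb1*, whose X box GTAACTGATG lay 23 bases before its Y box. The spaced pair was in 2 of the 7 member genes and in 64 of 32851 mouse promoters (0.195%). Up to the end of the Y box, the *H2-DMb1* and *H2-DMb2* promoters were identical at 45 of 50 bases. Counted from 1 at the 5′ end of the X box, *H2-DMb2* differs from *H2-DMb1* there by G1T and T6C. The searched core allows any base at the place of T6C, so G1T alone breaks the match. *H2-Ob* matched only a wider X box, GNNAC joined to NNNTG, a pattern chosen after the sequences were seen. That pattern with the Y box was in 3 member genes and 0.758% of all promoters. The Y box alone was in all 7 member genes found and in 33.8% of all promoters. These matches describe letters and not binding, and a window without a match says nothing about the factor.

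The 4 libraries held 11816478 and 4839341 assigned fragments in old ETP, against 16658864 and 6414915 in young ETP. Of these, the 10 members took 0.627% and 1.83% in old ETP and 0.0834% and 0.139% in young ETP. Levels below are CPM, fragment counts put on 1 shared scale by TMM (a correction for differences in library make-up), unless FPKM is named. FPKM are the authors' values per kilobase of transcript and are used to compare levels between genes within a library. All 10 members passed the filter for testing, which asked for 2 or more libraries with an FPKM of 1 or higher, as did 10080 genes in all. *Ciita* passed only through the old libraries, being at 0.756 and 0.914 FPKM in young ETP, so the filter favoured a higher old estimate for it. *Kit*, which encodes CD117, was at 936 and 945 CPM in old ETP and 764 and 1096 CPM in young ETP. *Cd44* was at 636 and 519 CPM in old ETP, against 496 and 517 CPM in young ETP, while the CD25 gene *Il2ra* was at 31.8 and 22.9 CPM against 26.3 and 39.9 CPM. *Notch1*, the receptor gene of T lineage specification, was at 963 and 577 CPM in old ETP, against 1273 and 1204 CPM in young ETP, and *Flt3*, a cytokine receptor gene of early progenitors, was at 239 and 358 CPM against 279 and 243 CPM. *Kit*, *Il2ra* and *Flt3* thus overlapped between the ages, *Cd44* was 1.14 times as high on average in old ETP, and *Notch1* was at 0.622 times its young level, with both old below both young libraries (edgeR adjusted p = 0.999 for all 5).

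The classical chain genes were the members with some of the largest differences between the ages. *H2-Aa*, which encodes the α chain of the I-A molecule, was at 1199 and 3731 CPM in old ETP, against 101 and 222 CPM in young ETP. *H2-Ab1*, which encodes its β chain, was at 866 and 3687 CPM in old ETP and 142 and 225 CPM in young ETP. *H2-Eb1*, which encodes the β chain of I-E, was at 772 and 1695 CPM in old ETP, against 61.1 and 80.6 CPM in young ETP. Both old libraries lay above both young libraries for each of these genes, and the lower old library exceeded the higher young one by 5.41 times for *H2-Aa*, 3.85 times for *H2-Ab1* and 9.58 times for *H2-Eb1*. The old libraries also differed from each other, with replicate 2 above replicate 1 by 3.11 times, 4.26 times and 2.20 times in the same order of genes. The log2 fold changes of old over young were 3.94 (95% interval 2.11 to 5.76) for *H2-Aa*, 3.63 (1.71 to 5.55) for *H2-Ab1* and 4.12 (2.87 to 5.38) for *H2-Eb1*. In bulk RNA, more cells that carry a transcript and more of it per cell cannot be told apart.

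C57BL6 mice carry the b haplotype, in which the α chain gene of I-E is defective, so *H2-Eb1* has no partner chain. *H2-Ea-ps*, the locus of that α chain, had 0 fragments in all 4 libraries, which allows up to 0.249 and 0.654 CPM in old and 0.176 and 0.481 CPM in young replicates 1 and 2. These limits are for 3 fragments per library and cover counting error only. *H2-Eb2*, a second β chain locus of the E region, had 10 and 22 fragments in old ETP, against 3 and 4 in young ETP, and was too low to be tested. Its upstream region, shown beside that of *H2-Eb1*, holds the same X box.
H2-Eb2, chr17:34325530-34325594, plus strand: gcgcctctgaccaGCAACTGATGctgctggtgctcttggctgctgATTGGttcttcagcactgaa
The same X box letters therefore stood before *H2-Eb1*, at 203 and 278 FPKM in old ETP, and before a gene at no more than 0.363 FPKM there.

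The invariant chain gene *Cd74* was the most abundant member per length in every library. It was at 2845 and 9057 CPM in old ETP, against 229 and 522 CPM in young ETP, and its log2 fold change was 3.99 (95% interval 2.06 to 5.91). The ages did not overlap, and the lower old library was 5.45 times the higher young one. Set against the mean FPKM of *H2-Aa* and *H2-Ab1*, *Cd74* was at 2.38 and 2.14 in old ETP and 1.66 and 2.08 in young ETP. This ratio stayed between 1.66 and 2.38 while its parts differed many times over between the ages. It was still higher in both old libraries, without overlap between the ages. *H2-Aa* over *H2-Ab1* did not overlap either, at 1.59 and 1.16 in old ETP, against 0.814 and 1.13 in young ETP.

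*Ciita* was lowest of the members per length in all 4 libraries. It was at 64.5 and 329 CPM in old ETP, against 8.08 and 16.2 CPM in young ETP, with 776 and 1512 fragments in old and 138 and 101 in young libraries. The log2 fold change was 4.04 (95% interval 1.84 to 6.23), of the size of those of the classical chains. *Ciita* also had the widest gap between the old libraries of all members, with replicate 2 at 5.11 times replicate 1. On FPKM, *Ciita* per *H2-Ab1* was 0.0142 and 0.0175 in old ETP, against 0.0107 and 0.0140 in young ETP, without overlap between the ages. Mean CPM in old ETP was 16.2 times that in young ETP for *Ciita* and 12.4 times for *H2-Ab1*. For *H2-DMa* and *H2-Ob* it was only 2.61 and 1.12 times. Of its 9535 exonic bases, 329 overlap the antisense gene *Dexi*, which was at 14.5 and 10.2 CPM in old ETP and 16.1 and 8.33 CPM in young ETP, about the young level of *Ciita*.

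**Figure D1:**
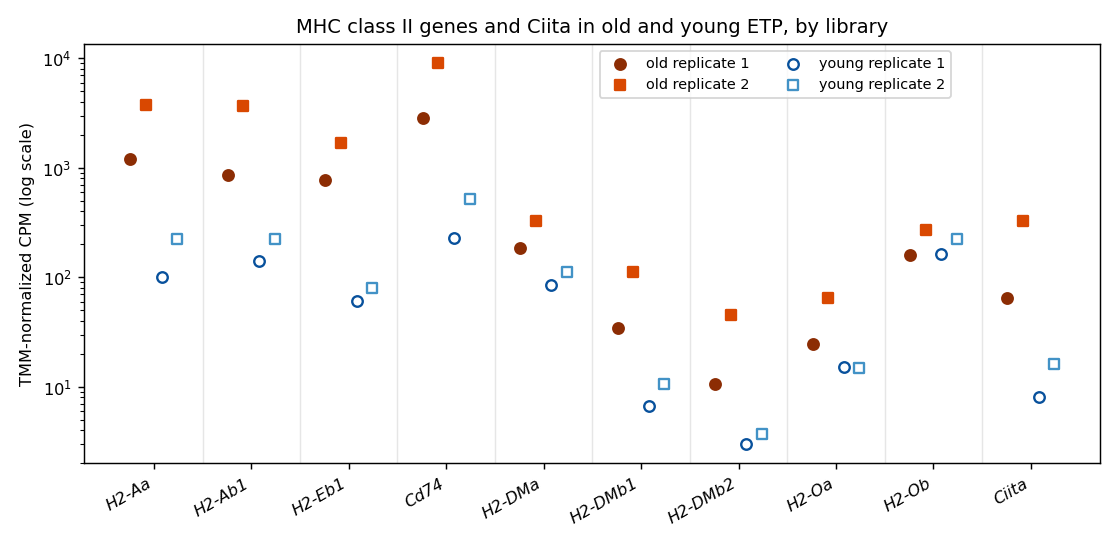
TMM-normalized CPM (log scale) of the 10 members in each library, old replicates as filled and young replicates as open symbols. Both old libraries lie above both young libraries for 9 members, old replicate 2 is the highest library for all 10, and *H2-Ob* overlaps between the ages.

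DM, the peptide editor, is a pair of the chains encoded by *H2-DMa* and either *H2-DMb1* or *H2-DMb2*. The β chain genes differed far more between the ages than the α chain gene. *H2-DMb1* was at 34.8 and 111 CPM in old ETP, against 6.73 and 10.6 CPM in young ETP, with a fold change on the log2 scale of 3.08 (95% interval 1.47 to 4.69). *H2-DMb2* was at 10.7 and 45.3 CPM in old ETP, against 2.98 and 3.68 CPM in young ETP, with a value of 3.06 on that scale (1.16 to 4.97), resting on 51 and 23 fragments in the young libraries. *H2-DMa* was at 184 and 329 CPM in old ETP, against 84.6 and 112 CPM in young ETP, which gave 1.38 (0.45 to 2.32). The ages did not overlap for any of the DM genes, but the lower old library was only 1.64 times the higher young one for *H2-DMa*.

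The pair of β chain genes are near copies that lie next to each other, and 179 of the 1305 words of 100 bases in *H2-DMb1* transcripts (13.7%) also occur in *H2-DMb2*. Single reads of 100 bases from those stretches cannot be told apart, though a mate read outside them can place the fragment. The split between these genes thus depends in part on how the authors assigned such fragments. No other pair of members shared a word of 100 bases. The FPKM ratio of *H2-DMb1* over *H2-DMb2* was 1.71 and 1.33 in old ETP and 1.18 and 1.55 in young ETP, overlapping between the ages. *H2-DMa* shares 360 of its 3448 exonic bases with the antisense gene *Brd2*, and whether the counting used strand is not given in the sources read here. *Brd2* was at 459 and 349 CPM in old ETP, against 357 and 358 CPM in young ETP.

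DO, the inhibitor of DM, is encoded by *H2-Oa* and *H2-Ob*, and is best known from B cells and thymic epithelium. *H2-Ob* was the member that did not follow the others. It was at 161 and 272 CPM in old ETP and 162 and 226 CPM in young ETP, so the ages overlapped, and its log2 fold change was 0.16 (95% interval -0.75 to 1.06). This interval leaves out a difference as large as the estimates of the classical chains, *Cd74*, *Ciita* and the DM β chain genes, but not one near 2-fold. Its estimate also changed sign in limma on the authors' FPKM, at -0.16 on log2(FPKM + 1), and with a library left out, at -0.29 without old replicate 2 and -0.06 without young replicate 1. *H2-Oa* was at 24.6 and 64.9 CPM in old ETP, against 15.3 and 14.7 CPM in young ETP, with a log2 fold change of 1.56 (0.27 to 2.86), or 0.68 without old replicate 2. Of its 1407 exonic bases, 321 overlap the antisense gene *BC051537*, which had at most 10 fragments in any library.

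The members therefore differed in proportion as well as in level. Per length, the order in both old libraries was *Cd74*, *H2-Aa*, *H2-Ab1*, *H2-Eb1*, *H2-DMa*, *H2-Ob* and *H2-DMb1*, followed by *H2-Oa* and *H2-DMb2*, whose order differed between the libraries, and *Ciita*. In both young libraries *H2-Ob* and *H2-DMa* stood above *H2-Eb1*, and *H2-Aa* and *H2-Ab1* changed places between the libraries. *H2-Ob* was at 24.9 and 26.6 FPKM in old ETP and 31.5 and 26.3 FPKM in young ETP, while *H2-Eb1* was at 203 and 278 FPKM in old ETP, against 20.2 and 15.8 FPKM in young ETP. The share of *H2-Ob* in the summed FPKM of the members was 1.11% and 0.599% in old ETP, against 9.54% and 7.35% in young ETP. The share of *H2-DMa* was 2.18% and 1.23% in old ETP and 8.54% and 6.20% in young ETP. *Cd74* took 46.8% and 46.6% in old ETP, against 32.3% and 40.3% in young ETP.

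**Figure D2:**
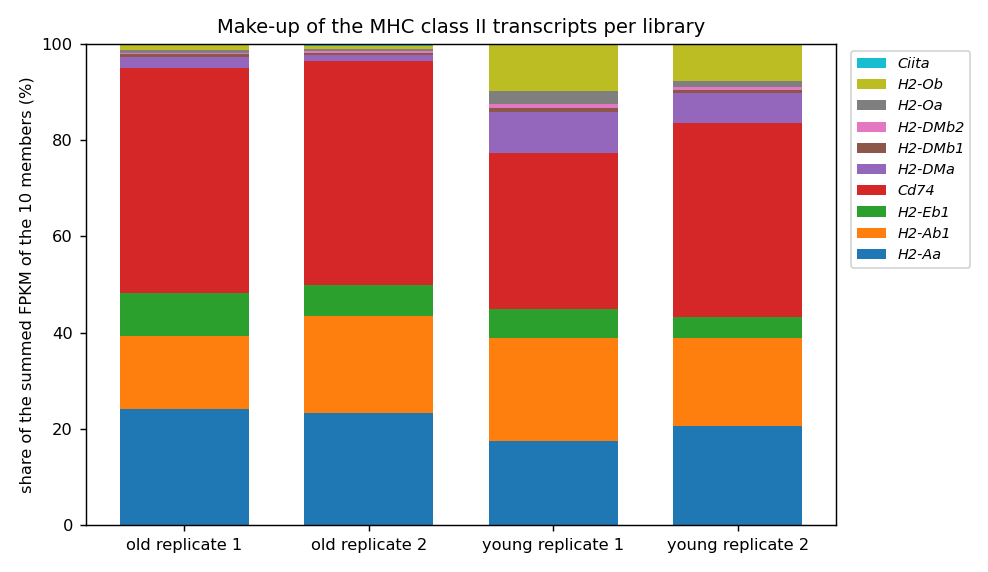
Share of each member in the summed FPKM of the 10 members (%), 1 bar per library. *Cd74* and the classical chains fill 95.1% and 96.4% of the old bars, against 77.3% and 83.5% of the young bars, and the segments of *H2-DMa*, *H2-Oa* and *H2-Ob* are smaller in old ETP.

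The ratio of *H2-Ob* to *H2-DMa*, a chain gene of the inhibitor over a chain gene of the editor, was 0.509 and 0.488 in old ETP. In young ETP it was 1.12 and 1.19. It does not stand for DO over DM as whole pairs. *H2-Oa*, the other DO chain gene, was at 11.4 and 18.4 FPKM in old ETP, against 8.98 and 5.01 FPKM in young ETP. Per *H2-Ab1*, *H2-Ob* was at 0.0731 and 0.0297 in old ETP and 0.446 and 0.402 in young ETP. *H2-Oa* per *H2-Ob* was at 0.457 and 0.694 in old ETP, against 0.285 and 0.190 in young ETP. These ratios are given as a description, with no test.

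In the test across all genes, 0 of the 10 members and 0 of 10080 genes (0%) were past an adjusted p of 0.05 as higher in old ETP (edgeR's quasi-likelihood test, Benjamini-Hochberg adjustment). The smallest adjusted p of any gene in this test was 0.325, and *H2-Eb1* shared it. The edgeR adjusted p was 0.355 to 0.376 for *H2-Aa*, *H2-Ab1*, *Cd74*, *H2-DMb1* and *Ciita*, 0.443 for *H2-DMb2*, 0.520 for *H2-DMa*, 0.715 for *H2-Oa* and 0.999 for *H2-Ob*. At an unadjusted p under 0.05, 9 members were higher in old ETP, where 4.65% of all tested genes were, and 0 members were lower, where 0.913% were. Both old libraries lay above both young libraries for the same 9 members, *H2-Ob* being the exception, and for 16.1% of all tested genes. DESeq2, another count test, called 7 members higher in old ETP, where it called 2.08% of tested genes. These were the classical chains, *Cd74*, *H2-DMb1*, *H2-DMb2* and *Ciita*, with DESeq2 adjusted p of 0.00177 or below, while *H2-DMa* (0.0698), *H2-Oa* (0.178) and *H2-Ob* (1.00) were not called. The median log2 fold change was 3.36 for the members and -0.03 for all tested genes, and 7 members exceeded 3, as did 1.20% of tested genes. *H2-Aa*, *H2-Ab1*, *H2-Eb1*, *Cd74* and *Ciita* are also among the genes the study chose to display from these same libraries, which makes their direction no independent evidence.

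The old libraries differed from each other in every member. Old replicate 2 was above old replicate 1 for 10 of 10 members, and for 48.8% of all tested genes. The median log2 ratio of replicate 2 over replicate 1 was 1.65 in old and 0.56 in young ETP for the members, against -0.02 and 0.04 for all tested genes. A fit without 1 library leaves 1 library for an age, so only estimates are given for such fits. The median log2 fold change of the members ran from 2.11 without old replicate 2 to 4.09 without old replicate 1. Over the fits that each lacked 1 library, the log2 fold change ran from 2.88 to 4.61 for *H2-Aa*, 2.22 to 4.37 for *H2-Ab1*, 3.42 to 4.62 for *H2-Eb1*, 2.91 to 4.70 for *Cd74* and 2.41 to 4.83 for *Ciita*. It ran from 2.00 to 3.74 for *H2-DMb1*, 1.67 to 3.81 for *H2-DMb2* and 0.88 to 1.79 for *H2-DMa*. Each of these was lowest without old replicate 2. The summed level of the 10 members was 6162 and 19323 CPM in old ETP, against 813 and 1433 CPM in young ETP, 11.3 times as high in old ETP and 5.42 times without old replicate 2.

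**Figure D3:**
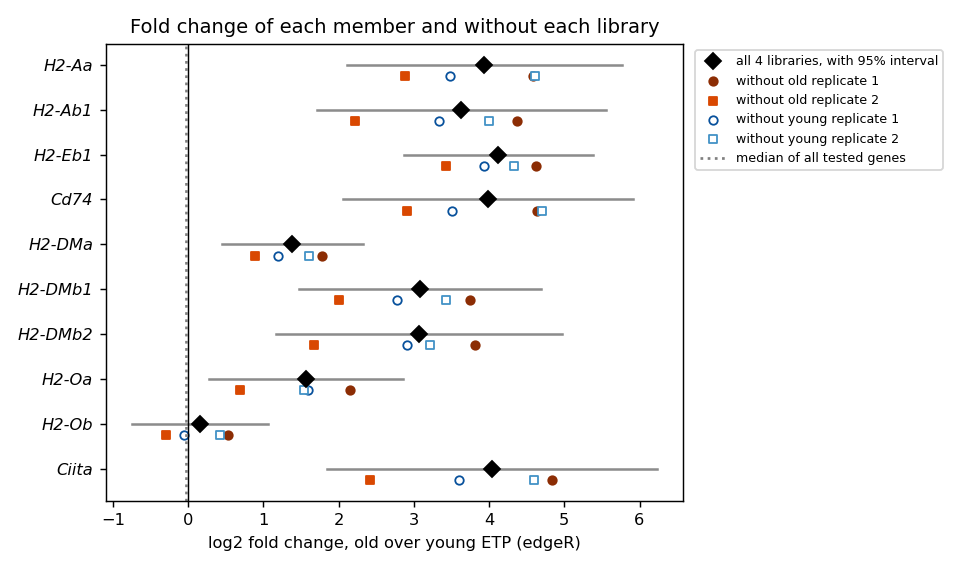
Log2 fold change of old over young ETP for each member from edgeR, with all 4 libraries (diamonds, bars for the 95% interval) and with each library left out (small symbols). The dotted line is the median of all tested genes (-0.03). The intervals of 9 members lie above 0, and that of *H2-Ob* runs from -0.75 to 1.06.

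The member closest to the mean pattern of the 10 over the 4 libraries was *H2-DMb1*, at a root mean square distance of 0.0726 on the log2 scale, and the farthest was *H2-Ob*, at 1.31. Among all other tested genes, the 5 nearest to that mean pattern were *Gimap3*, *Spint1*, *Itgax*, *Irf8* and *Slfn2*, at distances of 0.0552 to 0.0873. *Itgax* encodes CD11c, an integrin chain used as a dendritic cell marker, and was at 109 and 325 CPM in old ETP, against 25.7 and 39.9 CPM in young ETP. *Irf8*, a transcription factor gene of dendritic cells and other lineages, was at 277 and 864 CPM in old ETP and 59.9 and 82.8 CPM in young ETP. *Spint1* encodes a protease inhibitor, and *Gimap3* an immune GTPase, and both reached an FPKM of 1 only in old ETP. With 4 libraries this likeness is a description.

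Among the proteins on which CIITA docks, the 7 listed genes of RFX, NF-Y and CREB had estimates close to those of all tested genes. Of *Rfx5*, *Rfxap*, *Rfxank*, *Nfya*, *Nfyb*, *Nfyc* and *Creb1*, 0 had an unadjusted p under 0.05 in edgeR in either direction and DESeq2 called 0. Their median log2 fold change was -0.07, and their summed level was 638 and 853 CPM in old ETP, against 688 and 850 CPM in young ETP. *Nfya*, a subunit of NF-Y, was at 267 and 324 CPM in old ETP and 300 and 315 CPM in young ETP. *Creb1* followed the replicate number and not the age, at 159 and 346 CPM in old ETP and 194 and 347 CPM in young ETP.

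Of 10 factors known to act on *Ciita*, 8 could be tested and 2 were too low. The estimate was higher in old ETP for 7 of the 8 and lower for 1, and their median log2 fold change was 0.92. At an unadjusted p under 0.05 in edgeR, *Irf8*, *Ifngr1*, a chain of the interferon-γ receptor, and *Spi1* (*Sfpi1* in the table), which encodes the myeloid factor PU.1, were higher, by 7.997 times, 1.97 times and 1.66 times,, and DESeq2 called *Irf8*. *Ifngr1* was at 181 and 236 CPM in old ETP, against 114 and 98.2 CPM in young ETP. *Spi1* was at 132 and 98.7 CPM in old ETP, against 77.8 and 61.3 CPM in young ETP. *Irf1*, through which interferon-γ acts on *Ciita*, was at 146 and 97.4 CPM in old ETP and 152 and 90.8 CPM in young ETP. For *Irf1* the replicates of an age differed more than the ages.

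Enzymes that work on class II cargo and chains were mixed. Of 10 listed genes 9 were tested, of which 7 were estimated higher and 2 lower in old ETP, and 5 were higher at an unadjusted p under 0.05 in edgeR. The median log2 fold change was 1.35, and DESeq2 called *Ctsh*, *Ifi30* and *March1*. *Ctsh*, which encodes the protease cathepsin H, was at 41.1 and 123 CPM in old ETP, against 5.03 and 7.85 CPM in young ETP. *Ifi30*, which encodes the thiol reductase GILT that unfolds antigens in endosomes, was at 95.02 and 299 CPM in old ETP and 17.3 and 22.3 CPM in young ETP. *March1*, a ubiquitin ligase that removes class II molecules from the surface, was at 18.0 and 152 CPM in old ETP, against 3.45 and 13.1 CPM in young ETP. It reached an FPKM of 1 only in old ETP, so the filter favoured a higher old estimate for it. *Ctsz*, another cathepsin gene, was at 44.4 and 84.3 CPM in old ETP and 29.9 and 20.3 CPM in young ETP. *Ctss*, a further cathepsin gene, was at 111 and 354 CPM in old ETP, against 76.9 and 75.3 CPM in young ETP. The estimates of *Ctsl* (-0.51) and *Ctsd* (-0.34), which also encode cathepsins, were on the lower side.

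MHC class I genes, which present peptides from the cytosol, gave smaller estimates. Of 12 listed genes, 10 were estimated higher and 2 lower in old ETP, 5 of them higher at an unadjusted p under 0.05 in edgeR, and the median log2 fold change was 0.64. *Nlrc5*, the class I counterpart of *Ciita*, was at 142 and 204 CPM in old ETP, against 62.0 and 66.8 CPM in young ETP, and was the only one called by DESeq2 (adjusted p = 0.0107). *Tap1*, a peptide transporter gene that lies among the class II genes, was at 190 and 210 CPM in old ETP and 107 and 84.4 CPM in young ETP. *H2-D1*, a classical class I chain gene, was at 1052 and 755 CPM in old ETP, against 469 and 299.7 CPM in young ETP. Old replicate 2 was below replicate 1 for *H2-D1*, unlike for any class II member. The summed class I level was 1.49 times that of young ETP in old ETP.

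The class II members on chromosome 17 lie between *H2-Oa* (chr17:34092340-34095234, plus strand, GENCODE annotation of GRCm38) and *H2-Eb1* (chr17:34305867-34316674, plus strand). Genes within this region did not share a common difference. *H2-Ob* (chr17:34238903-34254414) lies just before *H2-Ab1* (chr17:34257689-34269419), with log2 fold changes of 0.16 and 3.63. Of 8 other listed loci in or beside the region, 5 were tested, all with higher estimates in old ETP, and 2 were higher at an unadjusted p under 0.05 in edgeR. These were *Tap1* and *Psmb9*, an immunoproteasome subunit gene at 220 and 288 CPM in old ETP, against 145 and 102 CPM in young ETP. The median log2 fold change of the 5 was 0.48.

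**Figure D4:**
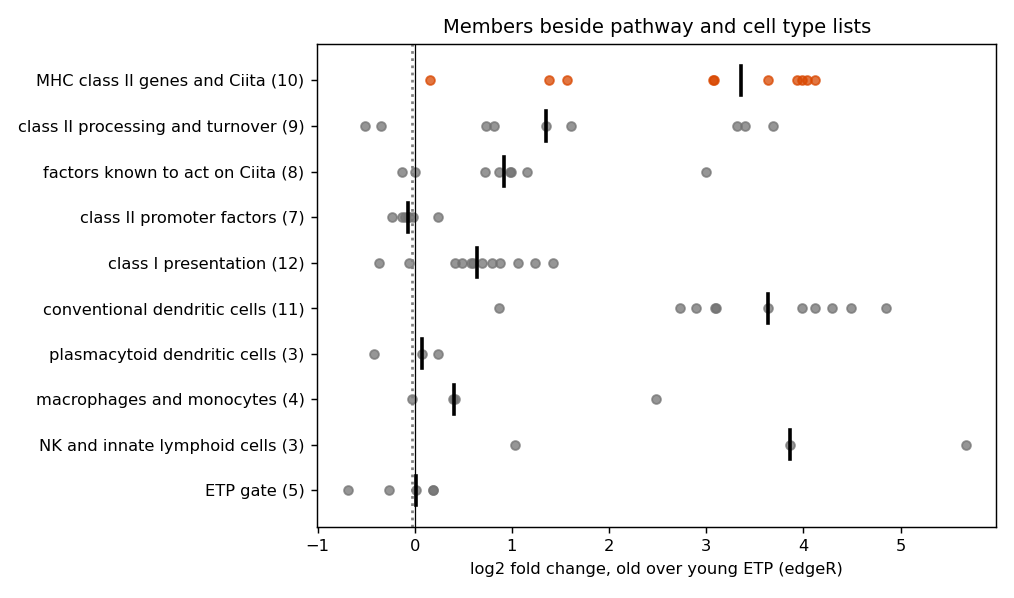
Log2 fold change of old over young ETP from edgeR for every tested gene of the members and of 9 other lists (points), with the list's median (bar) and the number of tested genes in brackets. The members have a median of 3.36 and the conventional dendritic cell markers one of 3.63, against 0.64 for class I presentation and -0.07 for the class II promoter factors. For genes that reached an FPKM of 1 in fewer than 2 young libraries, the filter favoured a higher estimate.

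Markers of conventional dendritic cells, which carry class II at high levels, stood higher in old ETP alongside the members. Of 14 listed markers 11 were tested, all with higher estimates in old ETP. In edgeR 10 were higher at an unadjusted p under 0.05, where 4.65% of all tested genes were. DESeq2 called 9 as higher, where it called 2.08% of tested genes. *Zbtb46*, *Batf3*, *Itgae* and *Cadm1* reached an FPKM of 1 only in the old libraries, so the filter favoured a higher estimate for them. *Clec9a* (0.867 and 1.54 FPKM in young ETP) and *Tlr3* (0.879 and 1.75 FPKM) also needed an old library to pass it, so the same holds for these. Among the untested markers, *Cd209a* and *Clec10a* overlapped between the ages, and *Fscn1* was higher in both old libraries. The summed level of all 14 was 1819 and 5306 CPM in old ETP, against 346 and 415 CPM in young ETP. It was 9.36 times as high in old ETP and again higher in old replicate 2. *Zbtb46*, a transcription factor of these cells, was at 12.6 and 45.5 CPM in old ETP and 3.04 and 3.68 CPM in young ETP. *Xcr1*, a chemokine receptor of the cross-presenting subset, was at 96.4 and 618 CPM in old ETP, against 10.2 and 26.7 CPM in young ETP. *Cst3*, *Naaa* and *Itgae* had the smallest p of the list, with log2 fold changes of 2.89, 3.63 and 4.12. None of the 14 markers was at 0 in all libraries. Their part in the class II levels was not tested.

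Marker lists of other cells that carry class II differed less in their summed levels. For B cells, 1 of 10 markers was high enough to be tested, and the summed level was 33.8 and 65.8 CPM in old ETP, against 38.1 and 40.8 CPM in young ETP. *Pax5*, a transcription factor gene of B cells, was at 0.0831 and 1.96 CPM in old ETP, against 0.176 and 0.160 CPM in young ETP. *Cd79b*, the tested B cell gene and the largest part of this sum in every library, had a log2 fold change of -0.15. *Cd22*, next in level, was at 3.57 and 18.7 CPM in old ETP, against 0.410 and 1.44 CPM in young ETP. At low counts, *Cd79a* had 14 and 20 fragments in old ETP, against 4 and 0 in young ETP, and *Ms4a1* had 6 and 23 against 3 and 0. *Ebf1* went the other way, with 0 and 0 fragments in old ETP, against 12 and 1 in young ETP. For thymic epithelium, *Foxn1* had 0 fragments in all 4 libraries, *Epcam* was at 2.24 and 10.7 CPM in old ETP and 1.17 and 0.961 CPM in young ETP, and the 7 markers summed to 5.32 and 16.3 CPM in old and 7.02 and 5.45 CPM in young ETP. Of these only *Ccl25* was tested (log2 fold change -1.10).

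For macrophages and monocytes, 4 of 11 markers were tested and the summed level was 293 and 296 CPM in old ETP, against 222 and 208 CPM in young ETP. *Csf1r* was at 76.9 and 73.0 CPM in old ETP and 73.1 and 79.9 CPM in young ETP. *Adgre1* (*Emr1* in the table) was at 0.499 and 1.96 CPM against 0.936 and 0.320 CPM. *Lyz2*, the most abundant of the list, was at 173 and 142 CPM in old ETP, against 128 and 111 CPM in young ETP. *C1qa* had 0 fragments throughout, but *C1qb* had 3 and 12 fragments in old ETP, against 3 and 0 in young ETP. *C1qc* had 1 and 10 against 1 and 1. *Ly6c2*, *Mertk*, *Fcgr1* and *Cd14* overlapped between the ages. *Cd68*, which dendritic cells also express, was the macrophage gene called by DESeq2, at 25.3 and 65.8 CPM in old ETP, against 4.97 and 11.5 CPM in young ETP. For plasmacytoid dendritic cells, 3 of 8 markers were tested with none at an unadjusted p under 0.05 in edgeR, and the summed level was 148 and 251 CPM in old ETP, against 185 and 288 CPM in young ETP. *Siglech* had 3 and 43 fragments in old ETP and 10 and 22 in young ETP, and *Klk1* had 0 in all 4 libraries. *Tcf4* and *Bst2*, the most abundant of the list and the largest parts of its sum, had log2 fold changes of -0.42 and 0.24. At low counts, *Spib* had 11 and 28 fragments in old ETP, against 8 and 1 in young ETP. *Cd300c* had 7 and 5 against 0 and 3. Both stood higher in both old libraries on CPM, while *Cox6a2* and *Pacsin1* overlapped between the ages.

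Markers of NK and innate lymphoid cells also stood higher in old ETP, at lower levels. Of 10 listed genes 3 were tested, all with higher estimates in old ETP, 2 of them at an unadjusted p under 0.05 in edgeR and called by DESeq2. Those, *Ncr1* and *Klrk1*, reached an FPKM of 1 only in the old libraries, so the filter favoured a higher estimate for them. *Klrd1*, the other tested gene, overlapped between the ages, at 8.40 and 37.5 CPM in old ETP and 6.67 and 15.7 CPM in young ETP. The summed level was 52.0 and 145 CPM in old ETP, against 11.8 and 23.5 CPM in young ETP. *Klrk1* was at 17.2 and 71.5 CPM in old ETP and 2.11 and 4.16 CPM in young ETP. *Ncr1* was at 8.40 and 7.19 CPM in old ETP, against 1 and 2 fragments in the young libraries, and unlike the members it was not higher in old replicate 2. *Il22* had 0 fragments in all libraries. The part of these cells in the class II levels was not tested.

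**Figure D5:**
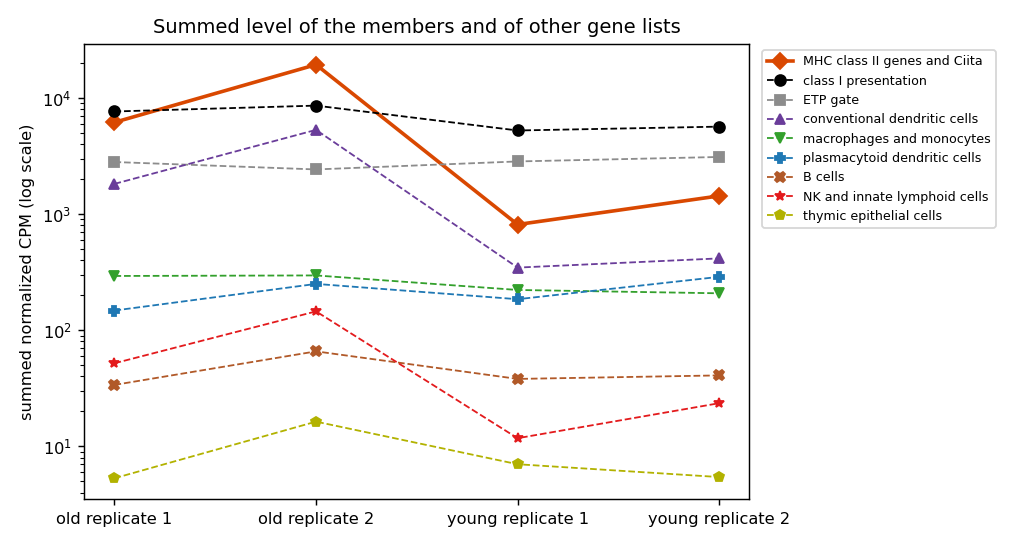
Summed TMM-normalized CPM (log scale) of the members and of 8 marker and pathway lists in each library. Members and conventional dendritic cell markers peak in old replicate 2 (19323 and 5306 CPM) and are lowest in young replicate 1 (813 and 346 CPM). The same holds for NK and innate lymphoid genes (145 and 11.8 CPM) and class I genes (8582 and 5242 CPM). The B cell, macrophage and epithelial lists also peak in old replicate 2. Plasmacytoid markers and genes of the ETP gate peak in young replicate 2, the latter staying between 2422 and 3101 CPM.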

How the data were processed

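RNA of sorted ETP was amplified (Nugen Ovation) and read from both ends. The authors aligned reads with STAR 2.3.0 to GRCm38 (mm10), and DESeq 1.12.1, HTSeq 0.5.4p3, Cuffdiff and Cufflinks 2.1.1 stand in the submitters' processing notes. The authors' deposited table, laid out like Cuffdiff output, gives per gene and library the estimated counts (expected fragments), a scaled signal (these fragments times a factor per library, not used further) and FPKM. Strand use and the handling of reads with several alignments are not given in the sources used here.

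Estimated counts were rounded to whole numbers, scaled by TMM over the 10080 genes that reached an FPKM of 1 in 2 or more libraries, and tested with edgeR 4.0.16 (quasi-likelihood, age as the only term, Benjamini-Hochberg adjustment over all tested genes, threshold 0.05) in R 4.3.3. The steps were tested on simulated counts. Alternatives were DESeq2 1.42.0, limma 3.58.1 on log2(FPKM + 1) and log2(FPKM + 0.1), RLE scaling, other filters, a term for the replicate number and each library left out in turn. The libraries of an age differed beyond counting noise (chi-square per gene 68.4 in old and 57.5 in young ETP), so no pair is 1 library under both numbers, which does not show separate animals. Depth sets a floor of 3 counts, or 0.176 to 0.654 CPM.

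The members and lists were chosen with earlier results of these data known. Named were all members, up to 3 genes per other list by smallest unadjusted p under 0.05 (otherwise the 2 most abundant), fixed defining markers, the loci *H2-Ea-ps* and *H2-Eb2* and the 5 genes nearest to the members' mean pattern. *Brd2*, *BC051537*, *Dexi*, *Flt3*, *Irf1*, *March1*, *Ctsl*, *Ctsd*, *C1qa*, *Klk1* and *Il22* were named after their values were seen. So were *Batf3*, *Cadm1*, *Cd209a*, *Clec10a*, *Fscn1*, *Klrd1*, *Cd79a*, *Ms4a1*, *Ebf1* and *Ctss*. The same holds for *Clec9a*, *Tlr3*, *Lyz2*, *C1qb*, *C1qc*, *Ly6c2*, *Mertk*, *Fcgr1*, *Cd14*, *Spib*, *Cd300c*, *Cox6a2* and *Pacsin1*. 1 of the fixed defining markers is not reported here.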

Additional observations from a re-analysis of the deposited data

How the results depend on the processing

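The count of members past an adjusted p of 0.05 was 0 in edgeR, with RLE scaling, with edgeR's own filter and in limma on both FPKM scales. It was 7 in DESeq2, 9 with no filter on low values and 9 with the replicate block, and 0 to 8 with a library left out, the 8 without old replicate 1. Over all genes the count was 0, against 225 in DESeq2, 508 with no filter, 777 with the replicate block and 0 to 221 with a library left out. The labels do not say that equal replicate numbers share an animal or batch. The deviations of the 2 same-numbered pairs correlated at 0.73, equal for both by construction. The members' median log2 fold change of 3.36 was 2.34 on log2(FPKM + 1) and 2.78 on log2(FPKM + 0.1), where all genes had medians of -0.27 and -0.33, and 2.11 to 4.09 with a library left out. The summed ratio of 11.3 ran from 5.42 to 17.8 with a library left out. *H2-Ob* took the other sign at -0.16 on log2(FPKM + 1), -0.16 on log2(FPKM + 0.1) and -0.06 without young replicate 1, and ran from -0.29 without old replicate 2 to 0.53 without old replicate 1. Of 110 alternative estimates of single members, 4, all of *H2-Ob*, reversed, and the rest kept their direction. Where 1 library of an age remained, its spread was taken from the other age, so counts past the threshold are not given for such fits. The causes were not tested. Depth limits mainly *H2-DMb2* and *H2-DMb1*, which have the fewest fragments in young ETP.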
